A study of Mus musculus with 2 samples.

Results

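The genes that build fatty acids and triglycerides and package them into lipid droplets were examined in kidney of mice with and without Iah1. They were chosen by name: 47 genes were listed from textbook pathways, and a gene was kept if the array's annotation gave at least 1 probe set that symbol alone. This held for 45 of the 47, among 22180 genes with such a probe set. Scd2 and Cideb sat on probe sets that carried the symbols of 2 genes and were not assigned. The brightest probe set stood for a gene.

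Both groups were male mice on standard chow up to 6 weeks of age and then on a high-fat diet for 12 weeks, caged singly and killed early in the afternoon after a fast of 4 hours. The Iah1-WT group was wild-type, and the Iah1-KO group carried a systemic knockout of Iah1, an esterase homolog; the sources used here do not give the deleted part of the gene, the strain or the diet's composition. Kidney RNA of 3 mice was pooled for each genotype and hybridised to 1 array, so each value below is that of 1 pool (the wild-type pool or the knockout pool) and no test between genotypes was possible. A pool hides the spread between mice, which still enters each difference and cannot be estimated here. Having only 2 arrays limits the precision. Whole kidney was used, so fewer cells of a type and less RNA per cell cannot be told apart.

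Fatty acid synthesis turns cytosolic citrate into acetyl-CoA, then malonyl-CoA, then palmitate, which elongases and desaturases lengthen and unsaturate. Acyl-CoAs are then joined stepwise to glycerol 3-phosphate, through lysophosphatidic acid, phosphatidic acid and diacylglycerol, to form triglyceride, which buds from the endoplasmic reticulum into droplets coated with perilipins. SREBP-1c, encoded by Srebf1, and ChREBP, encoded by Mlxipl, are the main transcriptional activators of these steps. In kidney, droplets form chiefly in proximal tubule cells, which take up and oxidise fatty acids as fuel, and they can accumulate there on high-fat diets.

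Values are log2 RMA values (background-corrected, quantile-normalised and summarised per probe set), and a difference is the knockout pool minus the wild-type pool on that scale; where 2 values are given for a gene, the wild-type pool comes first. The expression floor is a log2 value of 6 in the higher pool. With no replicates, the size of a difference was set beside a local robust SD, the spread of differences over the 500 genes nearest in mean value, which describes scatter between genes and not between mice. The targeted gene Iah1 was at 9.09 in the wild-type pool and at 3.60 in the knockout pool, below that array's median of 4.03, which fits the labels. All 14 proximal tubule markers found (of 15) passed the floor in both pools, with differences from -0.20 to 0.23 and a median of 0.04. Slc22a8 (0.23) and Gatm (-0.20) exceeded 2 local robust SDs, as did 7.10% of all genes at or above the floor. All 6 adrenal cortex markers, for tissue that dissection could carry along, were below the floor.

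The reference sequence before the start is shown for 3 genes: Srebf1 and Fads6, which were among the 3 genes of the set that differed by at least 1.2-fold at or above the floor, and Fasn, a known SREBP-1c target. Sequences are from RefSeq (GRCm38.p6), each is the 200 bases before a start, 5′ to 3′ on the gene's own strand (minus for all 3), and capitals mark a CCAAT box, the site of the factor NF-Y, on either strand. For Srebf1, 1 of the 3 starts in the reference table is shown.
Srebf1, chr11:60210472-60210671: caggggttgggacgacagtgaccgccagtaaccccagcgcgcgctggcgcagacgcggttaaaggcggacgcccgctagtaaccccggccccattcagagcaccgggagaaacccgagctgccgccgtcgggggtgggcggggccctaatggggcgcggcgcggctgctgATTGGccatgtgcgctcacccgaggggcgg
Fads6, chr11:115297563-115297762: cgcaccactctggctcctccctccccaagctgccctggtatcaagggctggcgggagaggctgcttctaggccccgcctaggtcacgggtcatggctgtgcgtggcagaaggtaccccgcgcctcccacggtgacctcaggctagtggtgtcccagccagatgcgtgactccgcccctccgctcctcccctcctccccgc
Fasn, chr11:120824548-120824747: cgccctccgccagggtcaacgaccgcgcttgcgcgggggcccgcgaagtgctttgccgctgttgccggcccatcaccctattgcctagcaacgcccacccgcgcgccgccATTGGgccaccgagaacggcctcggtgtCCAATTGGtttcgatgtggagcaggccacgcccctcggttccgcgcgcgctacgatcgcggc

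The Fasn stretch held 3 CCAAT boxes, 2 of them overlapping on opposite strands, the Srebf1 stretch held 1 and the Fads6 stretch held 0. Over the 300-base windows of the table (250 bases before a start to 50 after), 37 of the 45 genes had 52 windows, and 23 of these (44.2%) held CCAAT, against 37.4% of all 32851 windows. The E-box CACGTG, which binds basic helix-loop-helix factors, was in 7 of the 52 windows (13.5%, against 7.15% of all), in the genes Elovl4, Elovl5, Lpin2, Lpin3, Mlx, Mlxipl and Plin2. The sterol response element, searched as TCACNCCAC, was in 1 window (1.92%, against 1.24%), of Mlxipl, and the PPAR-type element, a direct repeat of AGGTCA with 1 base between the copies, was in 0 windows (0.0396% of all). Both strands were searched, no matches of different motifs overlapped, and a match is a description of letters only. Sites that depart from these letters were not counted, so the lack of a match does not show that a site is absent.

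Taken as a set, the lipid synthesis and droplet genes were nearly level between the pools. Of the 45 genes, 34 were at or above the floor and 11 were below it. The 34 had a median difference of 0.01, the same as the median of all 7671 genes at or above the floor, and reached from -0.43 to 0.38. Their median absolute difference was 0.06, against 0.09 for all genes at or above the floor, and 22 of the 34 (64.7%) differed by less than 0.1, against 54.2%. At least 1.2-fold higher in the knockout pool was 1 of the 34, Fads6, where 5.36% of all genes were, and at least 1.2-fold lower were 2, Srebf1 and Agpat5, where 3.77% were. A difference of at least 1.5-fold was found in 0 of the 34, where 0.222% of all genes were that much higher and 0.209% that much lower. These shares lie near the background.

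**Figure D1:**
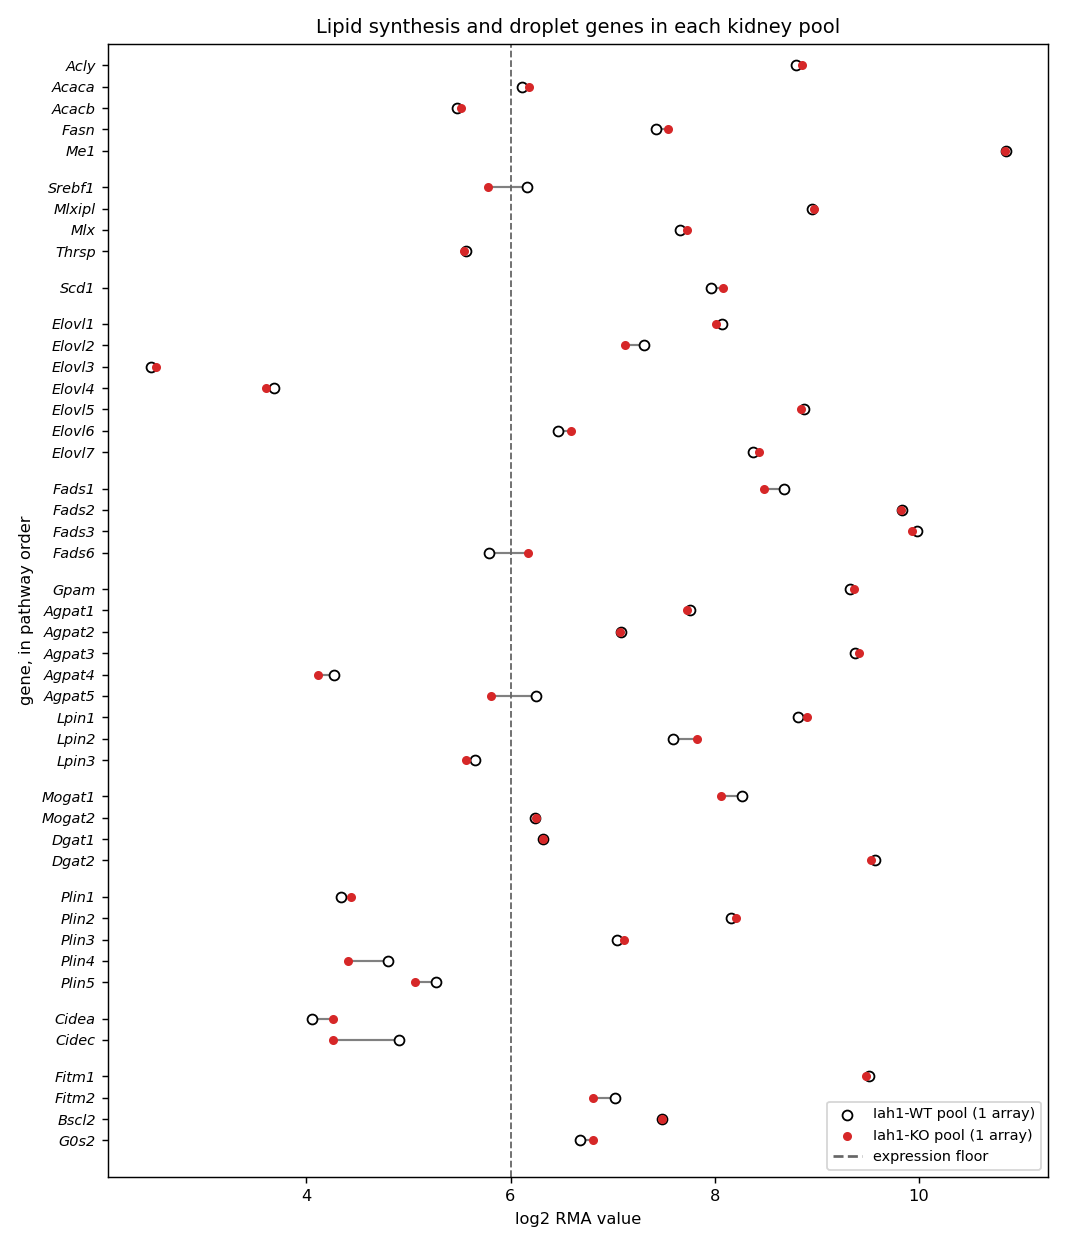
The log2 RMA value of each of the 45 genes in the wild-type pool (open circle) and the knockout pool (red circle), in pathway order from acetyl-CoA supply at the top to droplet proteins at the bottom, with 1 array per pool and the expression floor of 6 dashed. The circles overlap for most genes, and the widest gaps lie at or left of the floor, at Cidec, Agpat5, Plin4, Fads6 and Srebf1; positions along the axis compare a gene with itself, not genes with each other.

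Srebf1, Agpat5 and Fads6 each reached the floor in 1 pool alone, so a gene near the floor with a sizeable difference was counted through its higher value. Of the 31 genes at or above the floor in both pools, 0 differed by 1.2-fold, against 6.91% of the 7239 genes in both pools, and they reached from -0.21 to 0.24. The genes just inside the floor were Srebf1 at 6.16 and Fads6 at 6.17 in their higher pool, with Acaca at 6.18, and those just outside were Lpin3 at 5.65 and Thrsp at 5.56.

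The enzymes that make palmitate were level. Acly, which splits citrate to cytosolic acetyl-CoA, was at 8.80 in the wild-type and 8.85 in the knockout pool. Acaca, the cytosolic carboxylase that makes malonyl-CoA for synthesis, was at 6.11 and 6.18, and Fasn, the synthase that builds palmitate, was at 7.42 and 7.54. Me1, the cytosolic malic enzyme that supplies NADPH, was at 10.85 and 10.84. The 4 genes had a median difference of 0.06, and the furthest of them, Fasn at 0.12, was below its local robust SD of 0.14. Acacb, the mitochondrial-surface carboxylase whose malonyl-CoA restrains fatty acid import, was below the floor in both pools (5.48 and 5.51).

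Of the 4 regulators, Srebf1 had the widest difference. It was at 6.16 in the wild-type pool and 5.78 in the knockout pool, and so reached the floor in the wild-type pool alone. The difference of -0.37 (1.29-fold lower) was 1.99 times its local robust SD of 0.19. Mlxipl, encoding the glucose-responsive factor ChREBP, was at 8.95 and 8.97, and its dimer partner Mlx was at 7.66 and 7.73. Thrsp, the thyroid hormone-responsive lipogenic protein Spot14, was below the floor (5.56 and 5.54). Known SREBP-1 targets lay on both sides of 0 in the same arrays. Elovl6, Fasn, Scd1, Acaca and Acly differed by 0.14, 0.12, 0.11, 0.07 and 0.05, and Fads1, Elovl5, Thrsp, Fads2 and Me1 by -0.20, -0.02, -0.02, -0.01 and -0.01. Of these 10 genes, which were grouped here after their values were seen, Fads1 was at 1.85 local robust SDs, Scd1 at 1.0 and the others below that. The 10 are a selection, and the split between the sides depends on which genes are chosen. Gpam and Acacb, not among them, differed by 0.04 and 0.03.

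Desaturases and elongases differed little and in both directions. Scd1, the stearoyl-CoA desaturase that makes oleate, was at 7.96 in the wild-type and 8.08 in the knockout pool. Of the elongases, 5 of 7 passed the floor and had a median difference of -0.02. Elovl6, which takes palmitate to stearate, was at 6.46 and 6.59, and Elovl5, which lengthens polyunsaturated fatty acids, was at 8.87 and 8.84. Elovl2, which acts on longer polyunsaturated fatty acids, was the furthest of the family, at 7.31 and 7.12, a difference of -0.19 that was 1.49 times its local robust SD. Elovl1 (8.07 and 8.01), an elongase of saturated very-long-chain fatty acids, and Elovl7 (8.37 and 8.43) both differed by less than 0.1. Elovl3 (2.48 and 2.53) and Elovl4 (3.68 and 3.60), an elongase known for retina and skin, were below the floor.

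The Fads desaturase genes Fads3, Fads2 and Fads1 stand next to each other on mouse chromosome 19 in RefSeq, with no other protein-coding gene between. Fads1, the last desaturase on the way to arachidonate, was at 8.68 in the wild-type pool and 8.48 in the knockout pool, a difference of -0.20 and 1.85 times its local robust SD of 0.11. Fads2, which carries out the first desaturation of the same pathway, was at 9.83 and 9.82, and Fads3 at 9.98 and 9.93. The neighbours therefore gave differences of -0.01 and -0.05 beside the -0.20 of Fads1. Fads6, a family member on chromosome 11 whose role is less well defined, was at 5.79 in the wild-type and 6.17 in the knockout pool. It reached the floor in the knockout pool alone. Its difference of 0.38 (1.3-fold higher) was 2.0 times its local robust SD of 0.19.

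**Figure D2:**
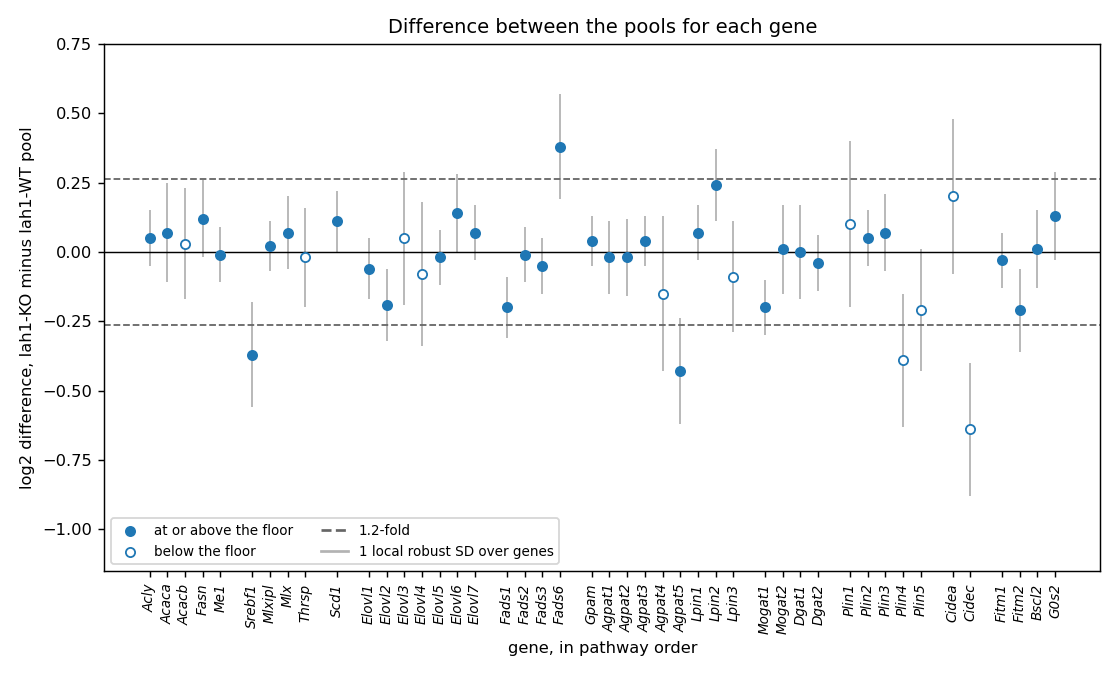
The difference of each of the 45 genes on the log2 scale (knockout minus wild-type pool), in pathway order; filled points are at or above the floor, open points below it, dashed lines mark 1.2-fold, and grey bars are 1 local robust SD over genes of similar signal, not an error between mice. Fads6 (0.38) lies above the upper line, Srebf1 (-0.37), Agpat5 (-0.43), Plin4 (-0.39) and Cidec (-0.64) lie below the lower one, and the last 2 are below the floor.

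Of the 9 genes of the glycerol phosphate route, 7 passed the floor, and their median difference was 0.04. Gpam, the mitochondrial acyltransferase of the committed first step, was at 9.32 in the wild-type and 9.36 in the knockout pool. Of the acyltransferases that make phosphatidic acid, Agpat1 was at 7.76 and 7.73, Agpat2, whose loss causes lipodystrophy in humans, at 7.08 and 7.07, and Agpat3 at 9.37 and 9.41. Those 4 genes differed by at most 0.04. Agpat5, a mitochondrial member, was the furthest of the 34 genes and reached the floor in the wild-type pool alone. It was at 6.25 in the wild-type and 5.81 in the knockout pool, a difference of -0.43 (1.35-fold lower). This was 2.34 times its local robust SD of 0.19. Agpat4 was below the floor (4.27 and 4.11).

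Lipins convert phosphatidic acid to diacylglycerol, and also act as transcriptional coactivators. Lpin1 was at 8.82 in the wild-type and 8.90 in the knockout pool. Lpin2 was at 7.59 and 7.83, a difference of 0.24 (1.18-fold higher) and 1.85 times its local robust SD of 0.13, and its second probe set, below the floor, was at 4.59 and 4.95, a difference of 0.36. Both probe sets of Lpin2 were higher in the knockout pool. Values as low as those of the second are not shown to be above background, so it adds little. Lpin3 was below the floor (5.65 and 5.56).

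The acyltransferases that complete triglyceride had a median difference of -0.02 over 4 genes. Dgat1 was at 6.32 in both pools, and Dgat2, the isoform most tied to newly made fatty acids, was at 9.57 in the wild-type and 9.53 in the knockout pool. Mogat2, the monoacylglycerol acyltransferase known for fat absorption in the intestine, was at 6.24 and 6.25; in RefSeq it is the next protein-coding gene to Dgat2 on chromosome 7. Mogat1 was the exception in this group, at 8.27 in the wild-type and 8.06 in the knockout pool, a difference of -0.20 (1.15-fold lower) that was 2.0 times its local robust SD of 0.10.

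Of the perilipins, 2 of 5 were at or above the floor. Plin2, the coat protein of droplets in most non-adipose cells, was at 8.16 in the wild-type and 8.21 in the knockout pool. Plin3, which moves from cytosol to nascent droplets, was at 7.04 and 7.11. Both differences, 0.05 and 0.07, were about 0.5 of a local robust SD (0.50 and 0.49). Plin1, the adipocyte perilipin, was below the floor (4.34 and 4.44), as were Plin4 (4.80 and 4.41) and Plin5 (5.27 and 5.06), which ties droplets to mitochondria; Plin4 and Plin5 are neighbours on chromosome 17 in RefSeq and differed by -0.39 and -0.21.

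The CIDE proteins promote the fusion and growth of droplets, and both members with a value were below the floor. Cidec, the adipocyte member also found in fatty liver, was at 4.91 in the wild-type and 4.26 in the knockout pool; the difference of -0.64 was the furthest of all 45 genes and 2.66 times its local robust SD of 0.24. Cidea, the brown fat member, was at 4.06 and 4.26. Of the 11 genes below the floor, 4 lay above 0 and 7 below, and 2 (18.2%), Cidec and Plin4, differed by at least 1.2-fold, both lower in the knockout pool, where 28.7% of the 14509 genes below the floor did in either direction and 15.7% did as lower. Values this low are not shown to be above background.

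Cidec, Plin1 and Plin4 are also adipocyte genes, so adipocyte markers outside the set were read in the same arrays. Of 11 listed, 9 were found, and their summed linear signal was 1500 in the wild-type and 1475 in the knockout pool. Most of it came from Lpl, Fabp4 and Car3, which were at or above the floor with differences of 0.02, -0.07 and 0.00. The cells behind this signal cannot be told in whole kidney, so the sum does not measure adipose tissue. The defining markers Adipoq (3.57 and 3.44) and Lep (4.61 and 3.95) were below the floor, with differences of -0.12 and -0.65. The difference of Lep was 2.44 times its local robust SD of 0.27. Also below the floor were Retn at 0.20, Pparg at -0.12, Ucp1 at -0.20 and Lipe at -0.25. Of the 6 markers below the floor, 5 lay below 0. The part of adipose tissue in the values of Cidec and Plin4 was not tested.

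Among the proteins that form droplets, Fitm1, which binds diacylglycerol and triglyceride in the endoplasmic reticulum and is known chiefly from muscle, was at 9.51 in the wild-type and 9.48 in the knockout pool. Its second probe set was below the floor, at 5.28 and 5.22. The positions of the probes are not known here, so which of the 2 sets reports Fitm1 could not be checked, and the value of the brighter one may not be that of Fitm1. The difference was near 0 in both (-0.03 and -0.05). Fitm2, the widely expressed paralog, was at 7.02 and 6.81, a difference of -0.21 (1.16-fold lower) and 1.44 times its local robust SD of 0.15. Bscl2, encoding seipin, which shapes nascent droplets, was at 7.48 in both pools. G0s2, a peptide inhibitor of the triglyceride lipase encoded by Pnpla2, was at 6.68 and 6.81, a difference of 0.13, whereas its second probe set, below the floor, was at 4.41 and 4.22, a difference of -0.20. The direction of G0s2 is therefore uncertain.

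**Figure D3:**
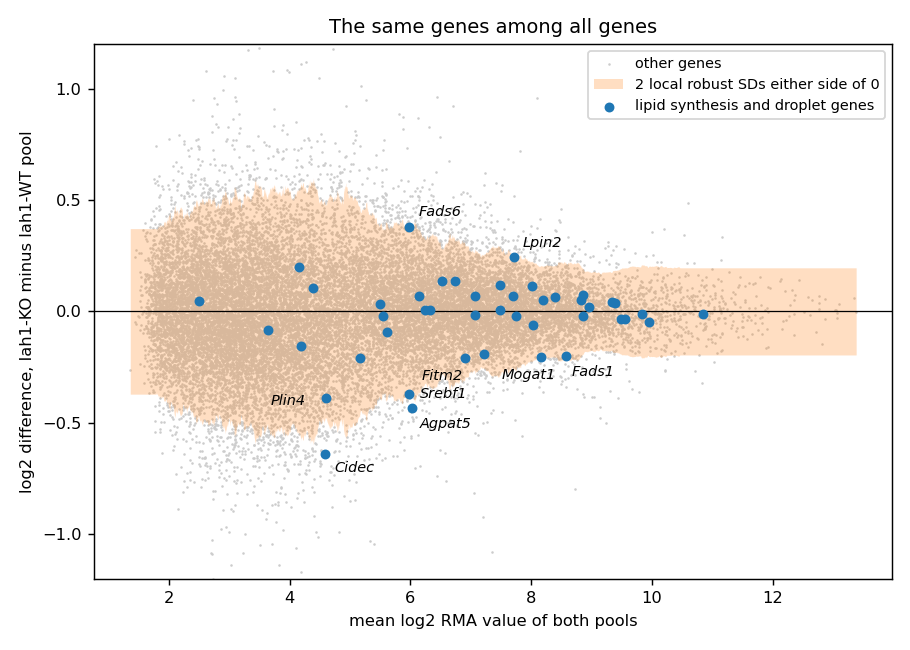
The difference of each gene (knockout minus wild-type pool, log2) against its mean log2 RMA value in both pools, for the 45 lipid synthesis and droplet genes (blue) and all other genes (grey); the band is 2 local robust SDs either side of 0, and 12 genes beyond the axis limits of 1.2, Iah1 included, are not drawn. Nearly all blue points lie inside the band, which widens towards dim genes; Cidec (-0.64) and Agpat5 (-0.43) lie below it, while Fads6, Srebf1 and Mogat1 lie at its edge.

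Counted by this scatter, 2 of the 34 genes at or above the floor, Agpat5 and Fads6, exceeded 2 local robust SDs, where 7.10% of all genes did. Both reached the floor in 1 pool alone. Fads6 (2.0), Mogat1 (2.0) and Srebf1 (1.99) all lay at this cut, so which of them is counted carries little information. The order of the 34 differences began with Agpat5, Srebf1, Fitm2, Mogat1, Fads1 and Elovl2 at the lower end and ended with Lpin2 and Fads6 at the upper end. Within the lower end, the gaps between Fitm2, Mogat1, Fads1 and Elovl2 (-0.21 to -0.19) were far smaller than their local robust SDs of 0.10 to 0.15, so their order carries no information.

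Other genes of the pathway, listed with earlier results of these data known, were also nearly level in the median. Of 71 genes in 7 lists, 66 were found and 50 were at or above the floor, and their median difference was 0.01. A 1.2-fold difference was reached upwards by 1 and downwards by 0 of them, against 5.36% and 3.77% of all genes, and 0 reached 1.5-fold. The higher one was Plpp2, a lipid phosphate phosphatase, at 7.72 in the wild-type and 8.0 in the knockout pool.

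The machinery that processes SREBP proteins had a median of -0.02 over 6 genes. The protease genes Mbtps2 and Mbtps1 differed by -0.16 and -0.08, the retention factor Insig2 by -0.12, and Srebf2, the paralog of Srebf1 that drives cholesterol synthesis, by 0.09. The nuclear receptors gave a median of 0.03 over 4 genes. Nr1h3, encoding the oxysterol receptor LXR alpha that activates Srebf1, was at 6.61 and 6.77, a difference of 0.16, and Ppard, Rxra and Ppara differed by -0.13, 0.08 and -0.02. No gene of these lists reached 1.2-fold at or above the floor.

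In the list of citrate and NADPH supply all 7 genes were within 0.1 of 0, with a median of 0.02. Its furthest genes were the mitochondrial malonyltransferase Mcat (-0.10), Pgd (0.08) of the pentose phosphate pathway, the acetate-activating enzyme Acss2 (0.07) and Me3 (-0.04). The other enzymes of the elongation cycle, which reduce and dehydrate the chain after each elongase step, had a median of -0.03 over 4 genes, with Hacd3 at -0.10, Tecr at 0.08, and Hacd2 and Hsd17b12 both at -0.03.

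Among other acyltransferases and phosphatases of glycerolipids, the median was 0.04 over 10 genes. Gpat3, an endoplasmic reticulum enzyme for the same first step as Gpam, was at 6.13 in the wild-type and 5.89 in the knockout pool, a difference of -0.24, and Mboat2 and Mboat7, which reacylate lysophospholipids, differed by 0.19 and 0.15. Droplet lipolysis had a median of -0.04 over 6 genes. Pnpla2, the first lipase of triglyceride breakdown and the target of G0s2, was at 8.36 and 8.51, its coactivator Abhd5 at 7.53 and 7.47, the monoacylglycerol lipase Abhd6 at 7.44 and 7.28, and Ces1d at 8.44 and 8.49. Other droplet proteins had a median of 0.02 over 13 genes, the furthest being Hsd17b11 (-0.15), Tmem159 (0.15), which partners seipin, Aup1 (0.13) and Faf2 (-0.13).

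**Figure D4:**
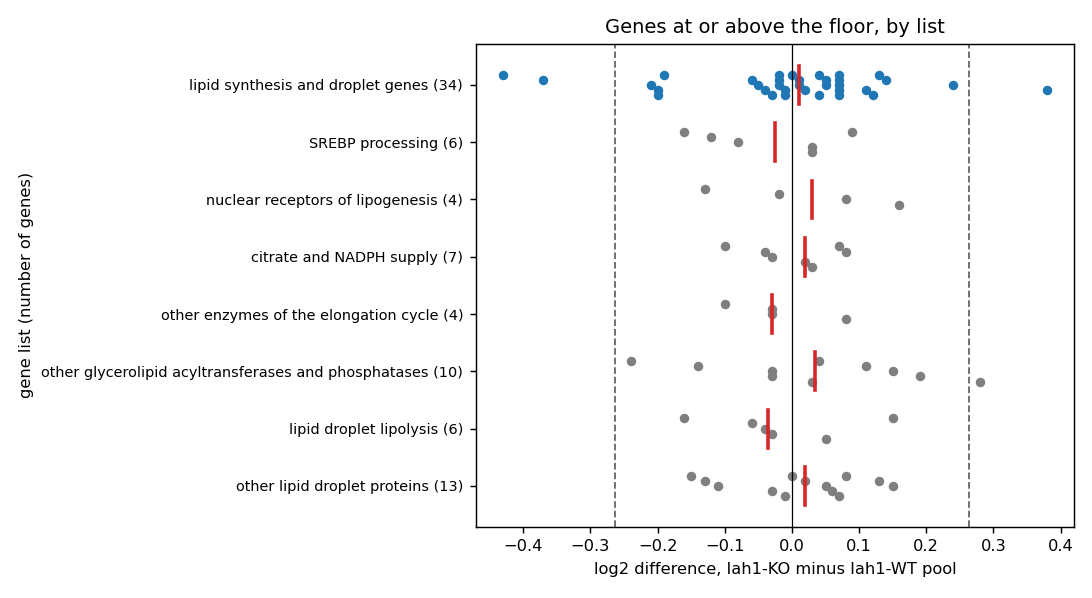
Differences on the log2 scale (knockout minus wild-type pool) of the genes at or above the floor, for the 34 lipid synthesis and droplet genes (blue) and 7 further lists of the pathway (grey), with the number of genes in brackets, the median of each list in red and 1.2-fold dashed. The medians lie between -0.04 and 0.04, and beyond the dashed lines are Agpat5, Srebf1 and Fads6 in the first row and Plpp2 (0.28) in one other.

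Markers of other cells in the kidney were read beside these values. Macrophages can hold droplets. Of the 7 macrophage markers found (of 7), 3 were at or above the floor, with Lyz2 at 0.63, Csf1r at 0.11 and Cx3cr1 at 0.41, the last in the knockout pool alone (5.75 and 6.16). The 4 below the floor had a median of -0.22, with C1qa at 0.04, Cd14 at -0.22 and Cd68 at -0.23. Adgre1, a defining marker, was the fourth of these, at 5.10 and 4.37, a difference of -0.73. The summed linear signal of the 7 was 445 in the wild-type and 489 in the knockout pool. The endothelial list had a median of 0.10 over 7 genes. That of the loop of Henle and distal tubule list was -0.12 over 5 genes. The collecting duct list had a median of 0.14 over 7 genes and was mixed. Its extremes were Atp6v1g3, a proton pump subunit of intercalated cells, at -0.81 and Aqp2, the vasopressin-regulated water channel, at 0.49. The others of this list were Slc4a1 at 0.18, Scnn1g at 0.16, Aqp3 at 0.14, Avpr2 at -0.02 and Slc26a4 at -0.09. The part of cell composition in the values of the lipid genes was not tested.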

How the data were processed

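Kidney RNA of 2 pools, each of 3 mice, was measured on 1 Affymetrix array per genotype. The authors deposited 1 log2 value for each probe set and array. According to the submitters' processing notes these came from RMA, run with Affymetrix Expression Console 1.3.0; the annotation build was not given in the sources used here. Quantile normalisation hides a shift shared by most genes, and RMA compresses differences of dim probe sets. Medians were 4.05 in the wild-type and 4.03 in the knockout column.

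Of 41345 probe sets, 23521 had exactly 1 symbol in the platform annotation, 1814 several and 16010 none; only the first were assigned, and a gene's brightest was used. All 45 genes matched RefSeq by Entrez number. Differences, a local robust SD (median absolute deviation times 1.4826, 500 genes), counts and medians were obtained in Python 3.11.15 (numpy 2.4.6, pandas 2.3.3, statsmodels 0.14.6), and the local SD and loess steps were tested on simulated data. No p-value was computed, with 1 array per genotype. The genes and lists were chosen with earlier results of these data known. All genes of the set were named, and of each other list up to 4 genes at or above the floor with the largest difference. Also named, after their values were seen, were the adipocyte and macrophage markers below the floor and the rest of the collecting duct list. Protein sequences were not used here. Of these other lists, 121 of 129 genes were found.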

Additional observations from a re-analysis of the deposited data

How the results depend on the processing

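The median difference of the 34 genes (0.01) lay between 0.00 and 0.01 under every alternative: a floor of log2 5, log2 7 or none, a floor on the mean of both arrays, median centring, loess on mean value (span 0.3) and the mean over probe sets. Medians of the groups and of the 7 further pathway lists moved by less than 0.13, the robust SD over genes at or above the floor. The marker lists were not rerun under these alternatives; the macrophage median was 0.41 over the 3 genes at the floor and 0.04 over all 7. Counts rested on genes near the floor. At least 1.2-fold higher and lower were 1 and 2 genes as reported; they were 0 and 0 with a floor of log2 7 or a threshold of 1.5-fold, 0 and 1 with a floor on the mean, 1 and 1 at 2 local robust SDs, 1 and 4 with no floor, and 2 and 2 with the mean over probe sets, which adds Lpin2. For the 50 other pathway genes (1 and 0) they were 3 and 1 with a floor of log2 5, 4 and 2 with no floor, and 0 and 0 at 1.5-fold. Of 135 differences of single genes under alternatives, 1 moved by more than its local robust SD: G0s2 was at -0.03 with the mean over its probe sets, which disagree. No paired analysis was possible because each genotype has 1 array. Signal over background limits the 11 genes below the floor.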
